A study of Drosophila melanogaster with 4 samples.

Results

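The transcription factors tested by RNA interference in early follicle cells of the Drosophila melanogaster ovary numbered 26, of 40 factors in the authors' deposited factor table and of 15682 genes in their table of the RNA-seq comparison. They were chosen by the presence of an RNAi line in the factor table, and they are set out here by the penetrance class that the same table gives to each line. The factor table had itself been selected on the RNA-seq values: all 40 factors had a DESeq2 adjusted p under 0.01 between EGFR-activated and control follicle cells. Fold changes and adjusted p-values of the screened factors are therefore a description of how they were picked and carry no test of their own.

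RNA was sequenced from follicle cells, the somatic epithelium around the germ line, in 2 groups of 2 libraries that the submitters call biological replicates. The EGFR-activated group carried UAS-EGFR-lambdatop, which encodes a constantly active epidermal growth factor receptor (EGFR), together with UAS-CD8-GFP, a membrane-bound green fluorescent protein. The control group carried UAS-CD8-GFP alone. In both groups the flies grew up at 18 °C, and the adults were moved to 29 °C, where they stayed 7 to 10 days until their ovaries were dissected. The driver of the transgenes and the age of the flies beyond those days are not given in the sources used here.

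A transcription factor binds DNA through a domain shared by its family, such as the basic helix-loop-helix (bHLH), the homeodomain or the zinc finger, and turns its target genes on or off, often through partners that do not bind DNA. In the follicle lineage, stem cells near the anterior end of the ovariole give rise to early follicle cells, which become polar, stalk or main body cells. EGFR signalling acts in this lineage through the ETS factor pointed, and repressors of the Hairy and Enhancer of split type recruit the corepressor Groucho, which the series title names. In RNA interference, a line expresses a double-stranded or hairpin RNA that lowers the transcript of 1 gene, and penetrance is the share of examined units that show a phenotype.

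Of the 26 factors screened, 10 had a phenotype in early follicle cells and 16 had none. The class of over 90% held 1 factor, Six4 (Bloomington line 30510). The class of about 50% held 1 factor, Mrtf (line 42537), and the class of about 25% held 1, the gene of heterochromatin protein 1 (FBgn0003607, line 33400), called here by its RefSeq synonym HP1 and drawn in the plots under the deposited Su(var) symbol. The class of under 15% held 7 factors. These were srp (line 35813), Hr46 (line 51442), pnt (line 35038), Mef2 (line 38247), su(Hw) (line 33906), E(spl)m3-HLH (line 25977) and E(spl)m7-HLH (line 35703). Each factor had 1 line. The table gives a text class only, with no number of ovarioles examined, no replicate and no depletion of the target, so no error can be put on a class and neighbouring classes cannot be told apart by a test. It names neither the phenotype nor the genotype in which the lines were driven.

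**Figure D1:**
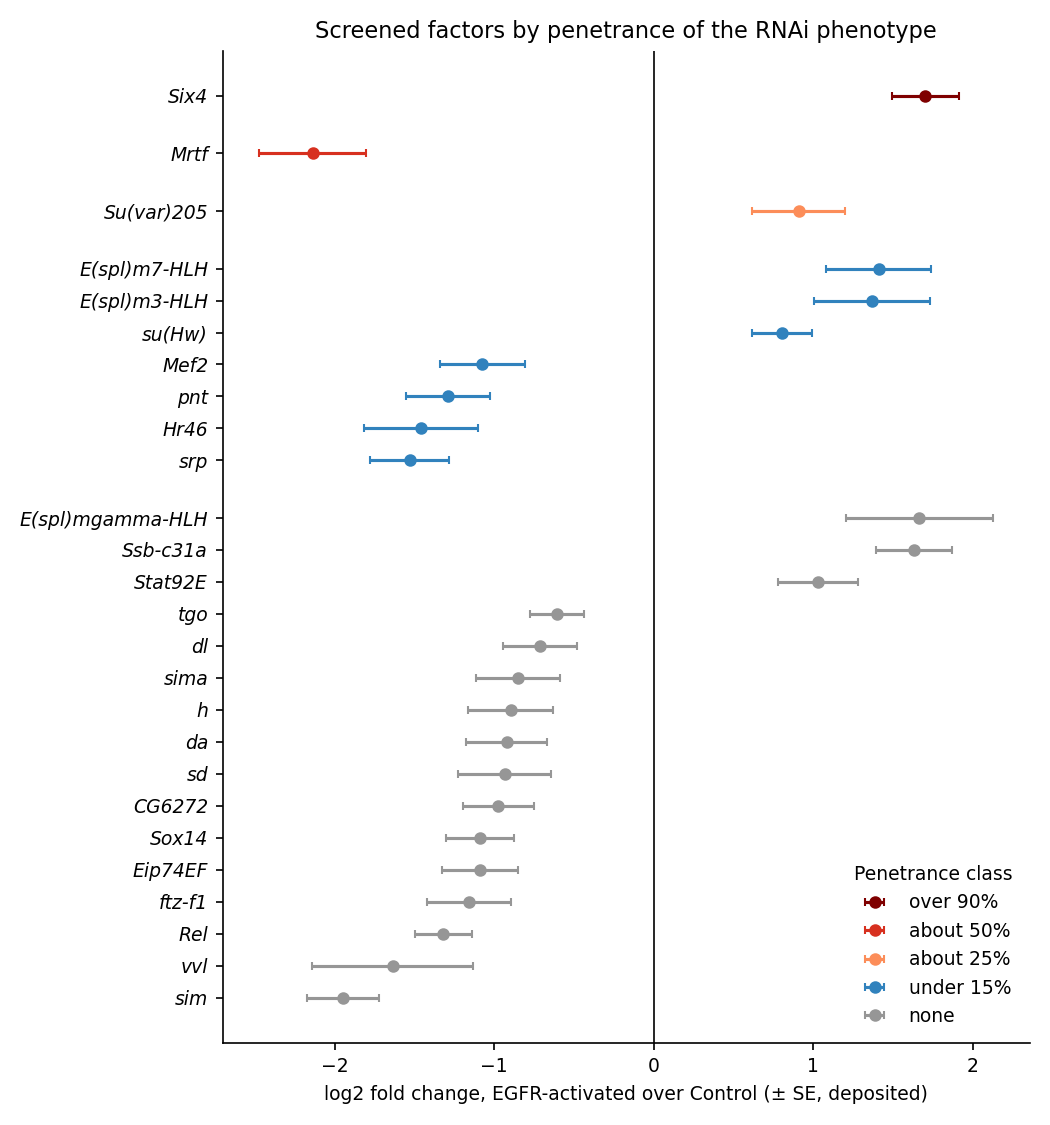
Log2 fold change (EGFR-activated over control, horizontal axis, points with SE bars from the authors' deposited table) for each of the 26 screened factors (rows), grouped and coloured by penetrance class from over 90% at the top to none at the bottom. Rising and falling factors occur both among the 10 with a phenotype (5 and 5) and among the 16 with none (3 and 13).

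Six4 encodes a homeodomain protein, related to sine oculis, that acts with the cofactor Eya in muscle and somatic gonad development. Its mean normalised count, the count divided by a size factor and averaged over all 4 libraries, was 5187 in the authors' deposited table. It rose by 1.70 ± 0.21 (SE) on the log2 scale in EGFR-activated cells in the authors' deposited table, a 3.25-fold higher level (DESeq2 adjusted p = 4.60e-14). This was the highest fold change of the 26, and the factor with the highest penetrance was also the screened factor with the largest rise. Cuffdiff, a second tool of the authors, gave 1.83 in the authors' deposited table.

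Mrtf, the myocardin-related coactivator that works with serum response factor on genes of the actin cytoskeleton, stood at the other end. It had a mean normalised count of 9364 and fell by 2.14 ± 0.33 in the authors' deposited table, a 4.40-fold lower level in EGFR-activated cells (DESeq2 adjusted p = 5.67e-09). No other screened factor fell as far in the deposited values. With a trend on exonic length taken out, sim (−1.82) and CG6272 (−1.74), both with no phenotype, fell further than Mrtf (−1.67). As deposited, the factors of the 2 highest penetrance classes thus had the largest rise and the largest fall among those screened. Yet each lay within its own standard error of a factor with no phenotype, Six4 of E(spl)mgamma-HLH and Mrtf of sim.

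HP1 is a chromodomain protein that binds methylated histone H3 and does not read a DNA sequence. Its mean normalised count was 6492, and it rose by 0.91 ± 0.29 in the authors' deposited table (DESeq2 adjusted p = 0.00817). Among the 10 factors with a phenotype only su(Hw) had a smaller absolute fold change. The rise of HP1 was not called once a trend on exonic length had been taken out (0.40, adjusted p = 0.329). It turned to −0.01 with the ribosomal protein genes as the centre.

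In the class of under 15%, 4 factors fell and 3 rose in EGFR-activated cells. The GATA factor srp, which specifies haemocytes and fat body in the embryo, had a mean normalised count of 10078 and fell by 1.53 ± 0.25 in the authors' deposited table (DESeq2 adjusted p = 1.70e-08). Hr46, a nuclear receptor of the ecdysone response also called Hr3, had a mean of 746 and fell by 1.46 ± 0.36 in the authors' deposited table (DESeq2 adjusted p = 0.000348). The ETS factor pnt had a mean of 2755 and fell by 1.29 ± 0.26 in the authors' deposited table (DESeq2 adjusted p = 1.19e-05). Mef2, the MADS box factor of muscle differentiation, had a mean of 1531 and fell by 1.07 ± 0.27 in the authors' deposited table (DESeq2 adjusted p = 0.000412). With the length trend taken out, Mef2 was at −0.59 and no longer passed at 0.05 (adjusted p = 0.0809). These 4 factors belong to 4 families.

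The 3 that rose in that class were 2 bHLH repressors of the Enhancer of split complex and the zinc finger insulator protein su(Hw). E(spl)m7-HLH, listed as HLHm7 in the comparison table, had a mean normalised count of 657 and rose by 1.41 ± 0.33 in the authors' deposited table (DESeq2 adjusted p = 0.000157). E(spl)m3-HLH, listed as HLHm3, had a mean of 2435 and rose by 1.37 ± 0.36 in the authors' deposited table (DESeq2 adjusted p = 0.00116). The rises of these repressors, both direct targets of Notch, differed by less than either standard error. The insulator gene su(Hw) had a mean of 2004 and rose by 0.80 ± 0.19 in the authors' deposited table (DESeq2 adjusted p = 0.000188), the smallest absolute fold change among the factors with a phenotype. Centred on the ribosomal protein genes, E(spl)m7-HLH and E(spl)m3-HLH were at 0.49 and 0.45 and did not pass (adjusted p = 0.194 and 0.293), and su(Hw) turned to −0.12 (adjusted p = 0.608).

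The 16 factors with no phenotype covered most of the same range of fold changes. The bHLH-PAS factor sim, known for its role in the midline of the central nervous system (line 32488), had a mean normalised count of 8876 and fell by 1.95 ± 0.22 in the authors' deposited table (DESeq2 adjusted p = 4.92e-16). Its fall and that of Mrtf, with a class of about 50%, differed by less than either standard error. The third bHLH repressor of the Enhancer of split complex that was screened, E(spl)mgamma-HLH (line 51762), had a mean of only 38.5 and rose by 1.66 ± 0.46 in the authors' deposited table (DESeq2 adjusted p = 0.00189), and was at 0.74 and not called with the ribosomal protein genes as the centre (adjusted p = 0.159). The POU homeodomain factor vvl (line 50657) had the lowest mean of all screened factors, 18.5, and fell by 1.64 ± 0.50 in the authors' deposited table (DESeq2 adjusted p = 0.00534). These 2 factors had the widest standard errors of the 26.

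Ssb-c31a, a single-stranded DNA-binding protein related to the coactivator PC4 (line 35437), had a mean of 265 and rose by 1.63 ± 0.24 in the authors' deposited table (DESeq2 adjusted p = 3.95e-10). With the length trend taken out it was at 0.81, against 1.48 for Six4. Rel, a Rel family factor of the immune response (line 33661), had a mean of 11502 and fell by 1.32 ± 0.18 in the authors' deposited table (DESeq2 adjusted p = 1.32e-11). The nuclear receptor ftz-f1 (line 33625), which acts in the ecdysone cascade, had a mean of 7640 and fell by 1.16 ± 0.26 in the authors' deposited table (DESeq2 adjusted p = 0.000117). Large changes in either direction were thus found without a phenotype under the line used.

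The other 10 factors with no phenotype had absolute fold changes of 0.61 to 1.09. Stat92E, the transcription factor of the JAK-STAT pathway (line 35600), was the only one of these 10 to rise, at 1.03 in the authors' deposited table. With the ribosomal protein genes as the centre it was at 0.11 and not called (adjusted p = 0.730). The ecdysone-induced ETS factor Eip74EF (line 29353) and the Sox factor Sox14 (line 34794) both fell by 1.09 in the authors' deposited table. The C/EBP-like bZIP factor CG6272 (line 33652), named Irbp18 in RefSeq, fell by 0.97, and sd, the DNA-binding partner of Yorkie (line 35481), by 0.93 in the authors' deposited table. The E protein da (line 38382) fell by 0.92 and the pair-rule repressor h (line 34326) fell by 0.90 in the authors' deposited table. The hypoxia factor sima (line 33894) fell by 0.85, the Rel family factor dl (line 34938) by 0.71, and tgo, the common dimer partner of bHLH-PAS factors (line 53351), by 0.61 in the authors' deposited table. With the length trend taken out, sd, sima and dl were at −0.46, −0.42 and −0.31 and did not pass (adjusted p = 0.245, 0.239 and 0.334).

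**Figure D2:**
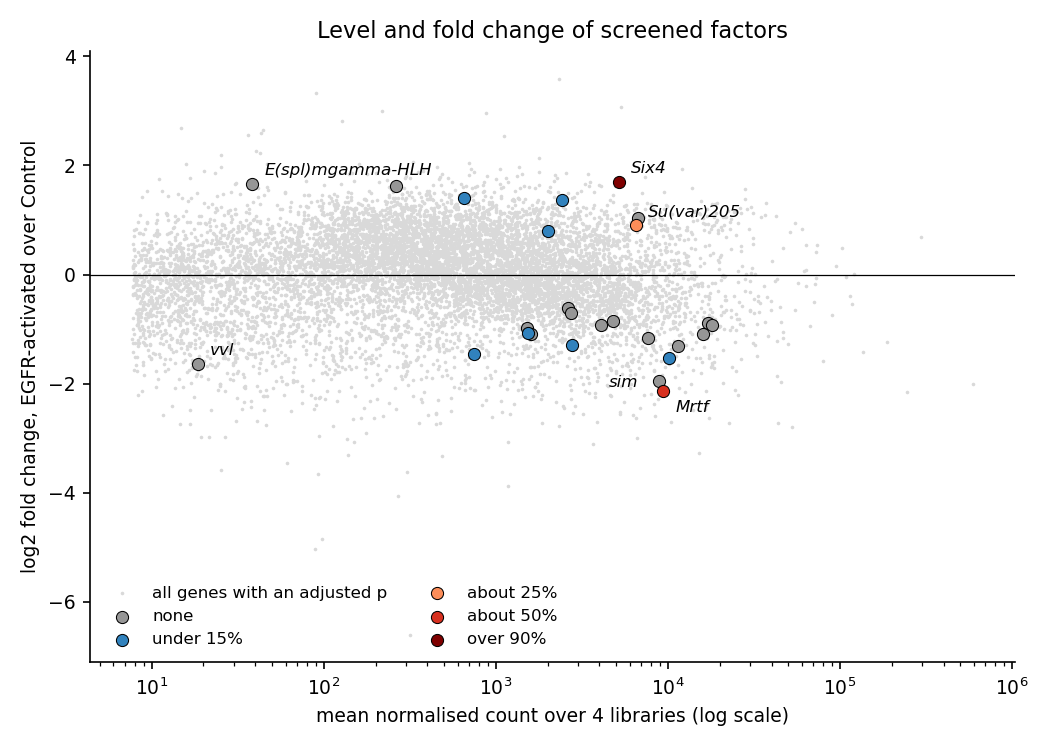
Log2 fold change (EGFR-activated over control, vertical axis) against the mean normalised count over 4 libraries (horizontal axis, log scale) for all 9409 genes with an adjusted p (grey) and the 26 screened factors (large points, coloured by penetrance class). Screened factors with a mean under 50 were vvl and E(spl)mgamma-HLH, both with no phenotype.

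By direction, 5 of the 8 screened factors that rose had a phenotype and 3 had none. Of the 18 that fell, 5 had a phenotype and 13 had none. The median absolute fold change was 1.39 over the 10 factors with a phenotype and 1.06 over the 16 with none, with ranges of 0.80 to 2.14 and 0.61 to 1.95 that overlapped almost throughout. All 26 passed an adjusted p of 0.05 and also of 0.01, as the selection requires, and the background in the whole table was 35.5% at 0.05 (18% higher and 17.5% lower) and 24.3% at 0.01 (11.7% higher and 12.6% lower). The median fold change was −0.93 over the screened factors and 0.06 over all 9409 genes with an adjusted p. The 2284 genes under 0.01, the threshold that all the factors passed, had a median of −0.67 and a median absolute fold change of 1.15. The median of the screened factors was −0.60 with the length trend taken out and −1.85 with the ribosomal protein genes as the centre. Factors just inside the threshold of 0.01 were Alh and Hr39, neither screened, and dl, screened, at an adjusted p of 0.0098, 0.00937 and 0.00888 in the authors' deposited table. The nearest factors of the family lists just outside it were SoxN, ttk and HLH106, at 0.0104, 0.0119 and 0.0123 in the authors' deposited table.

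Levels were compared per kilobase of exon, from the lengths of the BDGP6 annotation. The median mean normalised count per kilobase was 882 over the factors with a phenotype and 1010 over those with none, against 265 over all genes with an adjusted p and a length. Of the 26, 21 lay above the middle of all genes on this scale. The lowest factor with a phenotype was Hr46 at 71.3 per kilobase, and the highest was HP1 at 5854. With no phenotype, the levels ran from 3.87 per kilobase for vvl to 7345 for h.

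The factor table also marks which factors had an adjusted p under 0.01 from both DESeq2 and Cuffdiff, and the marks matched the listed p-values for all 40 factors. All 16 factors with the mark were screened, while 10 of the 24 without it were. A phenotype was recorded for 9 of the 16 screened factors with the mark and for 1 of the 10 without it, which was su(Hw). Among factors with the mark, 4 of the 5 that rose and 5 of the 11 that fell had a phenotype. The exception among those that rose was Stat92E. Among factors without the mark, 1 of the 3 that rose and 0 of the 7 that fell had a phenotype. The mark separated the factors by Cuffdiff alone, since every one of them passed with DESeq2. No test was made of these shares, because the mark rests on the same comparison that chose the factors.

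**Figure D3:**
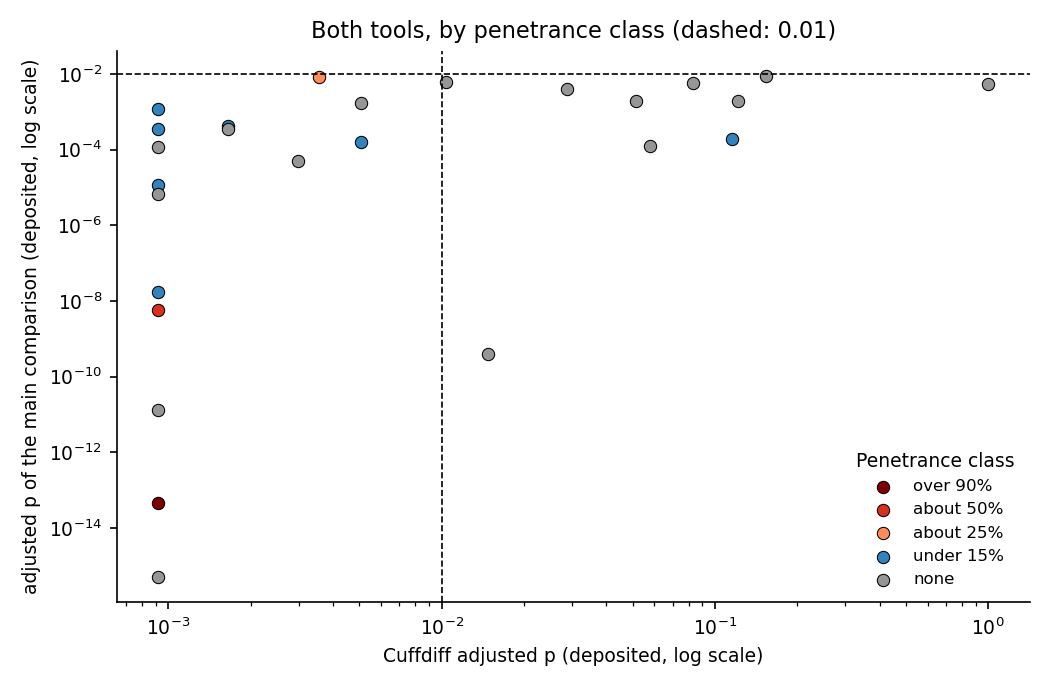
Adjusted p of the main comparison, made with DESeq2 (vertical axis, log scale), against adjusted p from Cuffdiff (horizontal axis, log scale), both from the authors' deposited table, for the 26 screened factors coloured by penetrance class, with dashed lines at 0.01. Left of the vertical line lie 16 factors, 9 with a phenotype, and right of it 10 factors, 1 with a phenotype.

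The fold changes of both tools had the same sign for all 26 screened factors and differed by a median of 0.07 and by at most 0.24 on the log2 scale. Cuffdiff gave the larger absolute value for 19 of the 26. At an adjusted p under 0.05, Cuffdiff called 19 of the 26, with 9 of the 10 factors with a phenotype and 10 of the 16 with none. The 7 not called by Cuffdiff were su(Hw), with a phenotype, and CG6272, E(spl)mgamma-HLH, dl, sima, tgo and vvl, with none. Their Cuffdiff adjusted p ran from 0.0514 for E(spl)mgamma-HLH to 1 for vvl in the authors' deposited table. The lowest Cuffdiff adjusted p in the table, 0.000916, was shared by 10 screened factors, 6 of them with a phenotype.

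By DNA-binding or coactivator family, the 26 factors fell into 18 families, of which 9 held a factor with a phenotype. Only 5 families held more than 1 screened factor. In the bHLH-Orange family, the Hairy and Enhancer of split type, 2 of 4 had a phenotype, E(spl)m3-HLH and E(spl)m7-HLH, both under 15%. E(spl)mgamma-HLH and h had none. In the bHLH-PAS family 0 of 3 had one (sim, sima and tgo), and in the Rel family 0 of 2 (Rel and dl). The ETS family held 1 of 2, pnt and not Eip74EF, and the nuclear receptors held 1 of 2, Hr46 and not ftz-f1. Over bHLH factors of all kinds, da included, 2 of 8 had a phenotype, and over the other families 8 of 18.

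The 13 families with a single screened factor held 6 with a phenotype. These were the homeodomain factor Six4, the coactivator Mrtf, the chromodomain protein HP1, the MADS box factor Mef2, the GATA factor srp and the zinc finger protein su(Hw). The 7 with none were vvl, CG6272, da, sd, Stat92E, Ssb-c31a and Sox14. The 3 classes at or above about 25% lay in 3 different families. Lines against members of 1 family target different genes, and each such count is a count of lines.

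**Figure D4:**
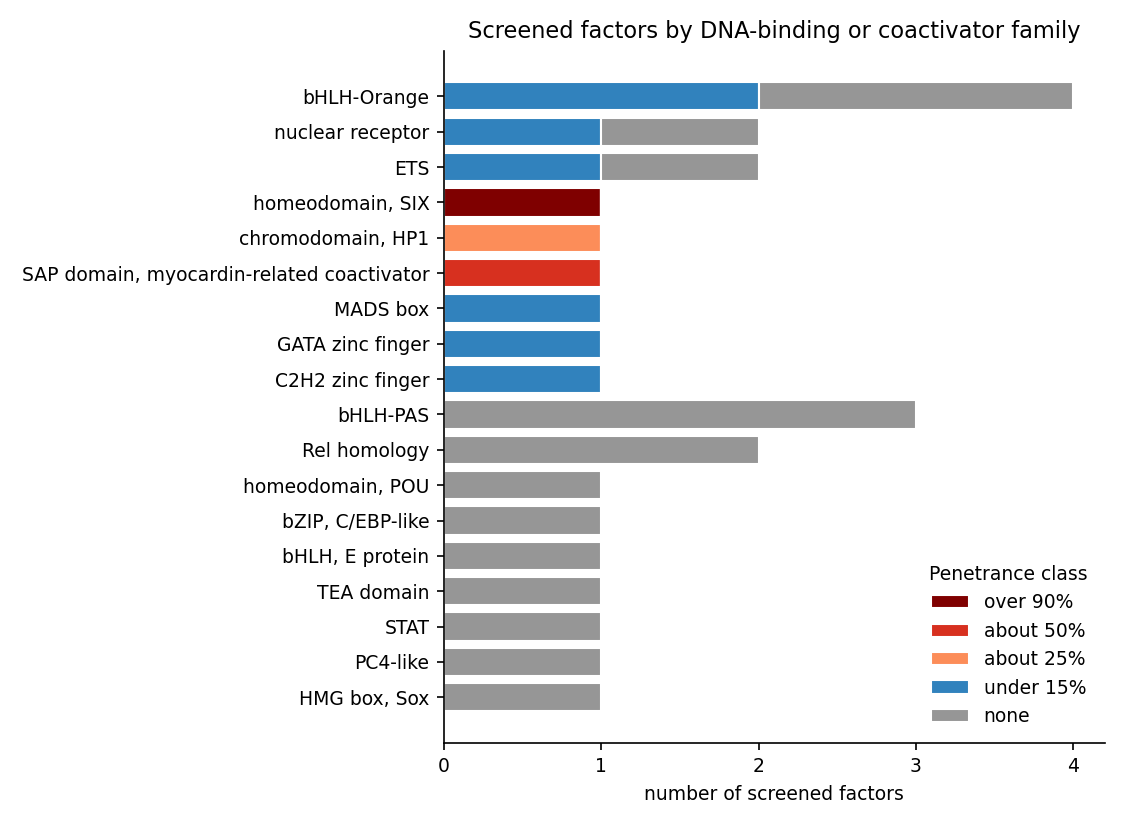
Number of screened factors (horizontal axis) in each DNA-binding or coactivator family (rows), with bar segments coloured by penetrance class. The bHLH-Orange family was the largest with 4 factors, 2 of them with a phenotype under 15%, and the 3 bHLH-PAS factors had none.

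Of the families with 2 screened factors, the ETS pair and the nuclear receptor pair each held 1 factor with a phenotype and 1 with none. The ETS factors pnt and Eip74EF fell by 1.29 and by 1.09 in the authors' deposited table, and the difference was smaller than either standard error. The nuclear receptors Hr46 and ftz-f1 fell by 1.46 and by 1.16 in the authors' deposited table, a difference smaller than the standard error of Hr46 and larger than that of ftz-f1. Their levels were further apart, with a mean per kilobase of 71.3 for Hr46 and 890 for ftz-f1. The Rel pair, both with no phenotype, fell by 1.32 (Rel) and 0.71 (dl) in the authors' deposited table, and the bHLH-PAS factors, also with none, ranged from −1.95 for sim to −0.61 for tgo in the authors' deposited table. Among the Enhancer of split repressors, the one with no phenotype, E(spl)mgamma-HLH, had a mean per kilobase of 42.3, against 669 for E(spl)m7-HLH and 1866 for E(spl)m3-HLH. The bHLH-Orange factor h stood apart from the other 3 by falling.

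In the RefSeq gene order, the run of neighbouring genes that starts at E(spl)mgamma-HLH and ends at E(spl)m7-HLH holds 10 genes, with E(spl)m3-HLH at number 6. HLHmbeta, the bHLH repressor next to E(spl)mgamma-HLH, rose by 1.17 ± 0.21 in the authors' deposited table (DESeq2 adjusted p = 3.77e-07). It is absent from the factor table and was not screened. HLHm5, at number 8, was at 0.96 ± 0.50 in the authors' deposited table, short of the threshold (DESeq2 adjusted p = 0.127). Genes of the run outside the bHLH family rose too, malpha by 1.41 ± 0.39 and m2 by 1.80 ± 0.43 (DESeq2 adjusted p = 0.00179 and 0.000221). Another, m1, was at 0.61 ± 0.54 and did not pass (DESeq2 adjusted p = 0.398).

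Other members of the same families, from lists of 329 symbols, showed how the screened factors sat among their relatives. The lists leave out Ssb-c31a and HP1. Of 201 listed factors with an adjusted p, 14 rose and 49 fell at 0.05, which is 31.3% in all against 35.5% of all genes. Among bHLH factors 4 of 31 rose and 10 fell, and the 8 screened made up 8 of these 14. Of 13 nuclear receptors 0 rose and 4 fell, with Hr4 at −1.56 ± 0.41 and Hr39 at −0.59 ± 0.19 in the authors' deposited table beside Hr46 and ftz-f1. Both ETS factors that passed, of 6, were screened, and Ets21C (0.26 ± 0.27) and Ets97D (0.12 ± 0.21) stayed short of the threshold in the authors' deposited table. The other GATA factors, GATAd (−0.14 ± 0.31) and GATAe (0.14 ± 0.53), were short of it too in the authors' deposited table, so srp was the only one of 3 that passed.

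The factors Mef2, Mrtf, srp and Six4 are also known from other tissues. Mef2, Mrtf and srp fell and Six4 rose, and markers of muscle, fat body and haemocytes were read in the same libraries. Of 7 muscle sheath markers 0 rose, 5 fell and 2 did not pass, with a median of −1.20 and mean normalised counts that summed to 5006, while 18% of all genes were higher and 17.5% lower. Mhc, a muscle myosin heavy chain, was at −1.91 ± 0.39 and Tm2, a tropomyosin, at −1.68 ± 0.28 in the authors' deposited table, with means of 283 and 140. The 2 that did not pass had the highest means of the 7. These were bt (mean 2424, −0.66 ± 0.41, DESeq2 adjusted p = 0.208) and sls (mean 1591, −0.17 ± 0.42, DESeq2 adjusted p = 0.797). Of the 3 fat body markers with an adjusted p, Lsp2 (−1.67 ± 0.31) and apolpp (−2.0 ± 0.22) fell and Yp1, which follicle cells also express, was at −0.40 ± 0.46 (DESeq2 adjusted p = 0.548) in the authors' deposited table. Fbp1 was listed at 0. Of the 4 haemocyte markers with an adjusted p, srp itself was the only one that passed, and the median was −0.71. Hml (mean 36.0) was at −0.10 ± 0.52 and eater (mean 8.99) at −0.51 ± 0.54 in the authors' deposited table. Pxn (mean 58.0) was at −0.92 ± 0.40 there (DESeq2 adjusted p = 0.0632). No value per library was used, so the marker levels in each group cannot be given, and the part of other tissues in these fold changes was not tested. In bulk RNA, fewer cells of a type and less RNA per cell cannot be told apart.

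Follicle cell markers were present: all 13 of the 15 listed that the comparison table holds under the names used had a mean of at least 190, among them tj at 10707 and Fas3 at 31666 in the authors' deposited table. Of these 13, 2 rose, tj by 0.87 ± 0.24 and eya by 0.90 ± 0.25 in the authors' deposited table, and 11 did not pass. The listed marker dec-1 is held there under the date-like name 1-Dec and was not among the 13. It had a higher mean than any of them, passed at 0.05 and fell about as far as Mrtf. All 8 germ line markers were detected, with means of 128 to 4500, and 0 of the 8 passed. Egfr, whose own reads and those of the transgene cannot be told apart, rose by 1.50 ± 0.35 in the authors' deposited table (DESeq2 adjusted p = 0.000177).

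Known partners of the screened factors were tested in the same comparison. Of 22 with an adjusted p, 2 rose, 2 fell and 18 did not pass, with a median of −0.07, against 18% higher and 17.5% lower and a median of 0.06 over all genes. Those that rose were eya, the cofactor of Six4, at 0.90 ± 0.25, and Egfr. Those that fell were ush, which binds GATA factors such as srp, at −1.30 ± 0.20, and hop, the Janus kinase upstream of Stat92E, at −0.99 ± 0.24 in the authors' deposited table. The serum response factor bs, through which Mrtf acts, was at 0.23 ± 0.22 (adjusted p = 0.445), and gro, the Groucho gene, at 0.37 ± 0.26 (adjusted p = 0.272) in the authors' deposited table.

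**Figure D5:**
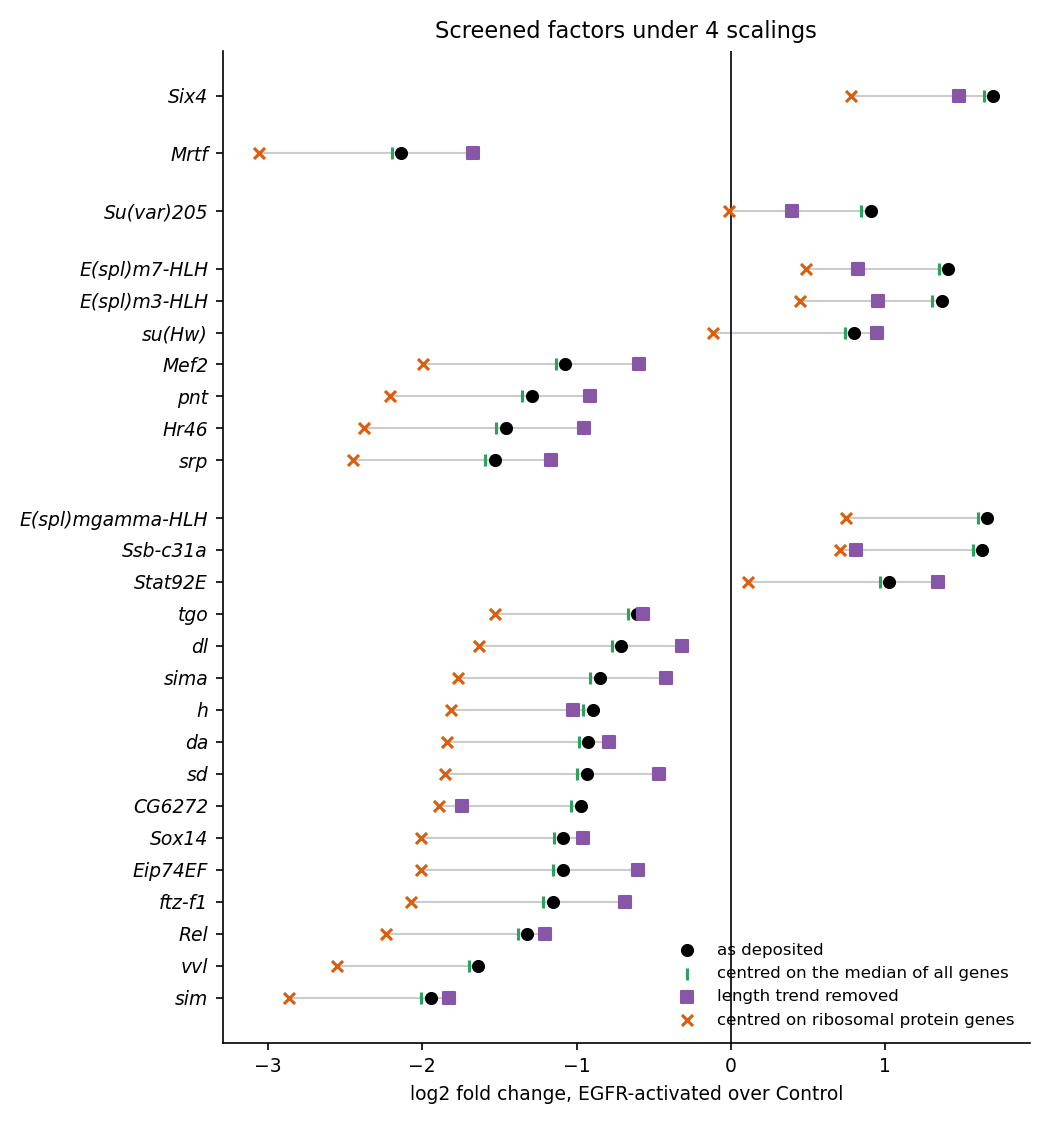
Log2 fold change (EGFR-activated over control, horizontal axis) of the 26 screened factors (rows, in order of penetrance class from over 90% at the top to none at the bottom) as deposited, centred on the median of all genes (0.06), with a trend on exonic length taken out (24 factors with a mean of at least 50), and centred on the ribosomal protein genes (0.92). The signs of su(Hw) and HP1 turned in the last setting, and the other 24 factors had the same sign in every setting shown for them.

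Six4 and Mrtf passed the test in every scaling tried, and so did srp, pnt and Hr46 among the factors with a phenotype. Factors with no phenotype that also passed in every scaling were sim, Rel, Sox14, Ssb-c31a, CG6272, da, h, tgo, Eip74EF and ftz-f1. Six4 was at 1.48 with the length trend taken out and at 0.78 with ribosomal protein genes as the centre (adjusted p = 6.60e-11 and 0.000530). Mrtf was at −1.67 and −3.06 under the same pair of scalings (adjusted p = 9.24e-06 and 1.64e-18). The ribosomal centre lowers every fold change by 0.92, so a factor that fell as deposited could only fall further there. For the factors that fell, passing in that setting is thus no further check. Of the 8 factors that rose as deposited, only Six4 and Ssb-c31a still passed as higher when centred on the ribosomal protein genes, at 0.78 and 0.71.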

How the data were processed

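RNA of 4 libraries (2 EGFR-activated, 2 control) was sequenced; per the labels' protocols, total RNA went through an oligo-dT pulldown and the ScriptSeq v2 kit. The submitters' processing notes name the build BDGP5, the aligner TopHat2 (2.0.10), the counter HTSeq (0.6.1) and, for the comparison, DESeq2 (1.2.10). No source used here gives the Cuffdiff version or the strand setting of the counting, and overlapping genes may share reads. The authors deposited, per the file headers, for each gene the normalised count averaged over the 4 libraries (a signal), a log2 fold change with its SE, the Wald statistic (a score) and p-values before and after adjustment. The second deposited table, per the file headers, adds Cuffdiff log2 fold changes and adjusted p-values, RNAi lines, and a penetrance class in percent as text, which falls under no other unit (other). Leaving out 5 rows without a gene, the mean normalised counts sum to 2.16e+07; totals per library are not used here. A p-value was listed for 12650 of 15682 genes and its adjusted form for 9409.

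Adjusted p-values were used as deposited, because only the authors' comparison is held and the edgeR test foreseen for counts could not apply. Of the factors, 37 were matched by symbol and 3 by an older symbol. Python 3.11.15 with pandas 2.3.3, scipy 1.17.1 and statsmodels 0.14.6 recomputed Wald p-values with Benjamini-Hochberg adjustment after centring or after removing a lowess trend (span 0.3) on log2 exonic length, fitted to 7772 of the 7887 genes whose mean reached 50. Exonic lengths were summed over the exons of BDGP6 and matched by gene name. The order of the Enhancer of split genes came from RefSeq start positions. No coordinates were carried over from the build of the alignment, since the builds differ. The recomputed p-values, their adjustment and the removal of the length trend were tested on simulated data, and centring was not. Every screened factor is named, with full values for those with a phenotype and for the 6 with none and the largest absolute fold changes. At most 2 unscreened relatives per family, those of smallest adjusted p at a mean of at least 50, follow from the same rule. HLHm5, malpha, m2, m1, peb, SoxN, ttk and HLH106 and the partner genes were named after their values were seen. Members, family and partner lists and marker lists were chosen with earlier results of these data known. Family assignments of the factors are textbook knowledge, written after the table was read.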

Additional observations from a re-analysis of the deposited data

How the results depend on the processing

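The count of 10 factors with a phenotype was 3 at a class of about 25% or more and 2 at about 50% or more. The 9 families with a phenotype were 4 when families were merged into zinc finger, helix-loop-helix, homeodomain and other. The median fold change of −0.93 moved to −1.85 with ribosomal protein genes as the centre and to −0.60 with the length trend taken out, an alternative chosen after seeing the data. It was −0.998 with Cuffdiff, −0.99 centred on the median of all genes and −0.93 over the factors with a mean of at least 50. All 26 factors were called as deposited, at thresholds of 0.01 and 0.1, adjusted over all genes with a p-value, and centred on the median of all genes. There were 24 of the 24 with a mean of at least 50 after adjustment over those genes, 20 centred on the ribosomal protein genes, 19 of 24 after removal of the length trend, and 19 with Cuffdiff. For the recomputed settings and Cuffdiff, the share of all genes called is not given here. These counts therefore have no background beside them. The values of su(Hw) and HP1 reversed to −0.118 and −0.0122 in the ribosomal setting; by construction that setting lowers every fold change by 0.92. Calls lost after removal of the length trend were those of Mef2, HP1, dl, sd and sima; the cause was not tested. No paired analysis was possible because the deposited tables used here hold no values per library; leaving out libraries and other size factors were not run for the same reason. The precision of a single factor is limited by its SE, 0.17 to 0.50 over the 26, and that of a penetrance class is unknown.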

Other observations

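Factors past the threshold that were not screened included several with larger changes than most of those that were. Of the 201 factors of the family lists with an adjusted p, 41 had one under 0.01, while 24.3% of all genes did. Of the 41, 30 are in the factor table and 11 are not. Of these 11, the Krüppel-like zinc finger gene luna changed most and fell by 1.87 ± 0.21 in the authors' deposited table (DESeq2 adjusted p = 5.06e-17), with a mean normalised count of 3114. Atf3, a bZIP factor of the stress response, was at −1.70 ± 0.31 and the T-box factor H15 at −1.68 ± 0.29 in the authors' deposited table. Mnt, the bHLH antagonist of Myc, fell by 1.36 ± 0.27 and the zinc finger gene peb by 1.35 ± 0.30 in the authors' deposited table. HmgD, a chromosomal HMG box protein, rose by 1.05 ± 0.28 in the authors' deposited table.

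In the factor table, 14 factors were not screened, and 8 of these fell and 6 rose. The T-box factor org-1 fell by 1.53 ± 0.34 and the bZIP factor cnc by 1.05 ± 0.20, while the chromosomal protein gene D1 rose by 1.01 ± 0.24 and the mitochondrial factor TFAM by 1.07 ± 0.23 in the authors' deposited table. None of the 14 had a Cuffdiff adjusted p under 0.01, and 5 had one under 0.05. The median absolute fold change was 1.03 over these 14 and 1.12 over the 26 screened.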
